A study of Mus musculus with 23 samples.

Results

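Mt1 and Mt2, the metallothionein genes of mouse chromosome 8, were followed through every library of a spinal cord injury study in mice. They are 2 of the 9480 gene symbols with counts, and were found by their symbols, each as 1 transcript row in both count tables. They were chosen by their counts in precipitated against remaining RNA, where both were high in the precipitate, so the contrast between precipitated and remaining RNA is described here without a test. The treatment comparisons, the difference of a treatment effect between the 2 RNA fractions and the ratio of Mt2 to Mt1 were tested. The genes were chosen with earlier results of these data known, so these p-values may not be independent of that choice.

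Young adult mGFAP-Cre-RiboTag mice, labelled wild type in genotype, received a severe crush of the spinal cord at thoracic level 10, and the central 3 mm of the lesion was taken on day 14. In RiboTag mice a ribosomal protein carries a hemagglutinin (HA) tag wherever Cre recombinase has been active, here under a mouse Gfap promoter, so antibody to HA pulls down ribosomes with their RNA from that lineage. The HA fraction is this precipitate, and the flow-through (FT) fraction is the RNA that was not precipitated from the same lesion tissue. The 3 treatments were injury with no depot (SCI only), injury with a hydrogel depot labelled CT, and injury with a hydrogel depot holding growth factors, with depots injected on day 2. For SCI only there were 4 HA and 4 FT libraries, for hydrogel CT 3 and 4, and for growth factors 3 and 5. FGF and EGF are given for that depot in the study's title, but the deposited tables head its columns with BDNF and NT3. Every group was injured, so no comparison with uninjured cord was made. The numbers in the sample titles run from 9596 to 9935 for SCI only and from 1645 to 1762 for both hydrogel groups, so in each comparison with SCI only the hydrogel and the series of numbered samples cannot be told apart. The labels do not say that each number is a separate mouse, and p-values measure the spread between these samples.

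Metallothioneins are small cytosolic proteins, rich in cysteine, that bind zinc and copper through the thiol groups of those cysteines. They buffer free zinc and scavenge oxidants, and their genes respond to zinc through the metal-responsive transcription factor MTF1 and to glucocorticoids and cytokines. In the central nervous system Mt1 and Mt2 are known chiefly as astrocyte genes that are induced by injury, while Mt3 is a form found mainly in brain and spinal cord.

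Mt2 lies at chr8:94172664-94173568 and Mt1 at chr8:94179082-94180327, both on the plus strand of mm10 in GENCODE M21, with 5513 bases between them. Each has 3 exons, with coding bases in each of them and untranslated ends in the first and last. An antisense gene, Gm45774, at chr8:94170748-94173412 on the minus strand, overlaps Mt2 but not Mt1, and because no label or header says whether strand was used in counting, reads of these 2 cannot be told apart. The coding sequences of both genes, 186 bases each, are shown because they are so alike that reads could in principle be shared between the genes. Capitals mark the 38 positions at which they differ.
Mt1 coding sequence: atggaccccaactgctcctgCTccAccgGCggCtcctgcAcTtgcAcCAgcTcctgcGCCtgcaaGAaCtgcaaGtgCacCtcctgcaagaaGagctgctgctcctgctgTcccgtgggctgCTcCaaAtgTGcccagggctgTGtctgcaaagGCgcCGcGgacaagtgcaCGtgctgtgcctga
Mt2 coding sequence: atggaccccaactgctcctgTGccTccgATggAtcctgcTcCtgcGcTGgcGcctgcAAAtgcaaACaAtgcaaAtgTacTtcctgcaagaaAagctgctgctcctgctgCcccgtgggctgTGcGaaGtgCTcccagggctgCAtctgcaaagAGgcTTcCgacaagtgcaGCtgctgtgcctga
The coding sequences were identical at 79.6% of positions. Of the 38 differences, 12 fell on the first, 4 on the second and 22 on the third base of a codon. All 20 tgc or tgt codons, which encode cysteine, stood at the same positions in both genes, while 28 of the 62 codons differed. The longest stretch shared by the full transcripts, of 549 bases for Mt1 and 511 for Mt2, was 20 bases. None of the 525 windows of 25 bases in the Mt1 transcript occurs in the Mt2 transcript, so a perfectly matching read of that length has only 1 of these transcripts as its source.

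The bases before each start site are shown because both genes are known for metal response elements. They come from RefSeq on GRCm38, at chr8:94178839-94179081 for Mt1 and chr8:94172368-94172617 for Mt2, on the plus strand. Capitals mark matches, on either strand, to 4 motifs: TGCACNC and TGCGCNC (forms of the metal response element core), TGACNNNGC (antioxidant response element core) and GGGCGG (GC box).
Mt1 upstream bases: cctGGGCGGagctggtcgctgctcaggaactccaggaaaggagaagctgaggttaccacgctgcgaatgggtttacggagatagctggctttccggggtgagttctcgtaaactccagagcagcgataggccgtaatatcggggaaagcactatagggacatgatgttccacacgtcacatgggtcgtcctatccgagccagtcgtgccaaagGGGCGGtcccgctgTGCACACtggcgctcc
Mt2 upstream bases: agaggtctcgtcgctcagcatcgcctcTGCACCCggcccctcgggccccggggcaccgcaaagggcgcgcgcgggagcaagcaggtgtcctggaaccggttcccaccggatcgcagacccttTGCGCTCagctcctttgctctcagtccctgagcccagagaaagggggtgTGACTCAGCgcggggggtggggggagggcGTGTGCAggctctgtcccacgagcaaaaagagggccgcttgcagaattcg
The Mt1 stretch held 1 match to TGCACNC and 2 to GGGCGG, and the Mt2 stretch held 2 matches to TGCACNC, 1 to TGCGCNC and 1 to TGACNNNGC. Within these printed stretches the matches did not overlap one another. In the whole RefSeq window of 300 bases, which runs 50 bases past the start, Mt1 held 3 and Mt2 held 4 matches to the metal response element core in either form. The matches not printed lay past the RefSeq start site, at bases 2 to 8 and 20 to 26 for Mt1 and 4 to 10 for Mt2. The printed stretches are therefore not the whole of the metal response elements, and bases beyond the windows were not searched. Among 32851 RefSeq windows of that length, 1.97% held 3 or more and 0.517% held 4 or more. Single motifs were common in the same windows, with TGCACNC in 12.6%, TGCGCNC in 15.4%, TGACNNNGC in 12.4% and GGGCGG in 35.7%. A match describes letters and was not tied to binding here.

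Total counts ran from 7939015 to 24335808 in HA libraries, from 2241508 to 5432216 in FT libraries of SCI only and from 19600 to 144902 in FT libraries of the hydrogel groups. A single non-coding gene, Yam1, took 40.0% to 93.1% of the HA counts and 13.8% to 93.1% of the FT counts. Protein-coding genes held 0.9% to 79.9%, with Lars2 left out here and in all protein-coding totals, per-length levels and ranks below. For that reason levels across fractions are given per 1000000 protein-coding counts (protein-coding CPM), and treatments are compared within a fraction on CPM of all counts after TMM scaling, which puts libraries on 1 scale by the genes they share. Of the astrocyte markers tested between fractions, 12 of 14 were higher in HA and none lower, and of the microglia and macrophage markers 8 of 9 were lower in HA and none higher. HA also exceeded FT for 5 of 6 oligodendrocyte progenitor and 4 of 10 oligodendrocyte markers, with none lower, and 6 of 7 neuron markers were lower. Over all 3295 genes 20.6% were called by edgeR's quasi-likelihood test at an adjusted p under 0.05, 13.2% higher and 7.37% lower in HA.

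With Lars2 left out, Mt1 and Mt2 were the 2 most abundant protein-coding messages per transcript length in the HA fraction of every treatment. Mt1 ranked 1 and Mt2 ranked 2 in all 10 HA libraries. Mt1 averaged 16.6% ± 1.36 (SD, n = 4) of the summed per-length protein-coding level in SCI only, 12.7% ± 3.59 (n = 3) in hydrogel CT and 18.2% ± 2.02 (n = 3) with growth factors. Mt2 averaged 12.4% ± 0.577, 9.29% ± 3.30 and 13.8% ± 2.95 on the same scale. Together the pair made up 27.4% to 31.0% of the per-length protein-coding level in HA libraries of SCI only, 17.5% to 29.9% in hydrogel CT and 27.0% to 36.6% with growth factors. Without the length correction their share of protein-coding counts was 4.43% to 11.1% over the 10 HA libraries.

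In the FT fraction the same messages were lower but still near the top of the list. In FT libraries of SCI only Mt1 ranked 4 to 6 and Mt2 ranked 7 to 12 per length, and the pair made up 2.53% to 3.71% of the per-length protein-coding level. In FT libraries of hydrogel CT the ranks were 3 to 10 for Mt1 and 2 to 30 for Mt2, and the pair made up 1.59% to 5.07%, a range that spans that of SCI only. In FT libraries with growth factors they were 7 to 70 and 14 to 206, and the pair made up 0.28% to 1.8%. The lowest ranks in that group, 70 and 206, were both in the library numbered 1732.

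**Figure D1:**
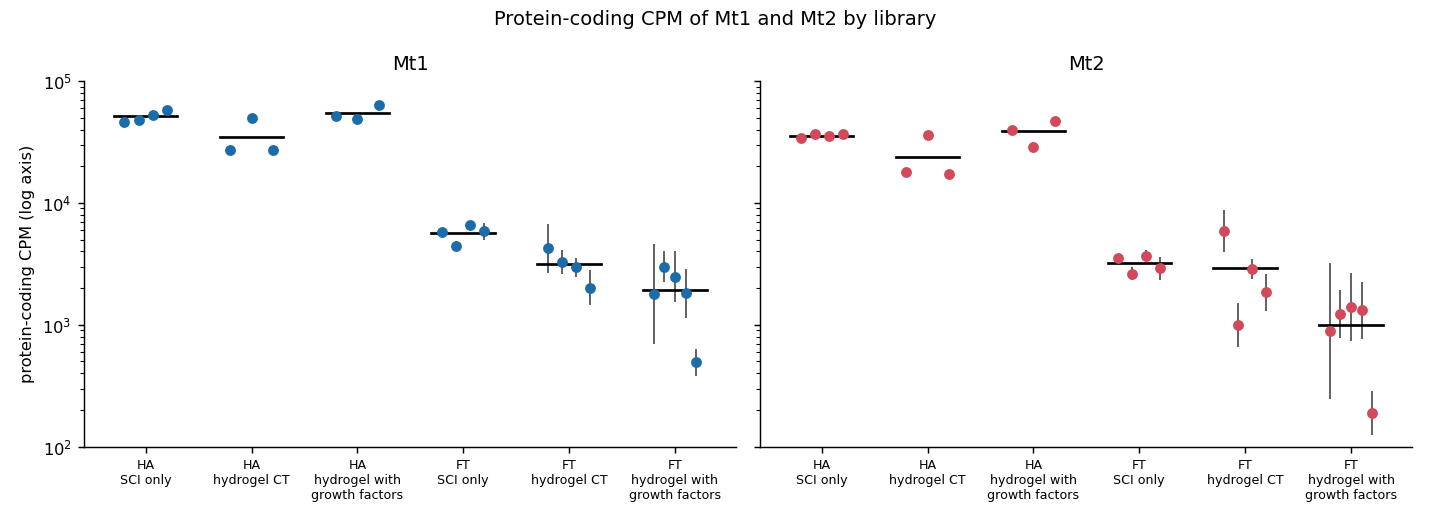
Protein-coding CPM of Mt1 (left) and Mt2 (right) on a log axis, 1 point per library, with horizontal lines at group means and 95% Wilson intervals that cover counting error only. All 10 HA libraries lie above all 13 FT libraries, and the intervals widen in the FT hydrogel groups, where Mt1 counts run from 4 to 116.

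In protein-coding CPM, Mt1 in the HA fraction stood at 45913, 48125, 52336 and 58331 in the 4 SCI only libraries, at 27321, 49637 and 27071 in hydrogel CT, and at 51473, 49111 and 63624 with growth factors. One hydrogel CT library, numbered 1759, lay within the range of the other groups and the remaining pair lay below every other HA library. For the FT fraction Mt1 was 5762, 4447, 6602 and 5836 in SCI only, 4236, 3282, 2958 and 2020 in hydrogel CT, and 1777, 3002, 2483, 1813 and 492 with growth factors. The 4 SCI only values lay above all 9 hydrogel values of that fraction. For none of the gaps between groups described in this report was the share of all genes with such a gap counted.

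Mt2 in the HA fraction stood at 33920, 36707, 35396 and 36839 protein-coding CPM in SCI only, at 18010, 35984 and 17237 in hydrogel CT, and at 40001, 28938 and 46925 with growth factors. The SCI only libraries were close together, while hydrogel CT reached below them and growth factors to either side. FT values of Mt2 were 3553, 2634, 3670 and 2899 in SCI only, 5884, 1003, 2881 and 1847 in hydrogel CT, and 888, 1228, 1396, 1310 and 190 with growth factors. Here hydrogel CT spanned the SCI only values, and all 5 libraries with growth factors lay below every SCI only library.

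The order of the group means was the same for both genes on this scale: HA with growth factors, HA SCI only, HA hydrogel CT, FT SCI only, FT hydrogel CT, FT with growth factors. The 3 HA groups overlapped with their neighbours in that order. Lowest HA and highest FT groups did not overlap, with means 6.12-fold apart for Mt1 and 7.45-fold for Mt2. FT SCI only and FT hydrogel CT did not overlap for Mt1 and overlapped for Mt2, and FT hydrogel CT overlapped with FT growth factors for both genes. Precision in the FT hydrogel groups was limited by depth: the library numbered 1645 held 4 counts of Mt1 and 2 of Mt2, and its 95% Wilson intervals reached from 691 to 4560 and from 244 to 3234 protein-coding CPM.

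HA libraries exceeded FT libraries of the same title number for both metallothioneins in all 10 numbers that have both. Over the libraries of those numbers the fitted difference, HA minus FT, was 4.37 on the log2 scale (SE 0.41) for Mt1 and 4.62 (SE 0.45) for Mt2. For Gfap, the astrocyte filament gene whose promoter drives Cre, it was 3.47 (SE 0.39). The fit held terms for treatment and fraction and none for the title number. The 2 tables were scaled together for this fit, over the genes listed in both. These values chose the genes and are given as a description.

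Within treatments the ratio of HA to FT averaged lowest and spread least in SCI only, by the mean and SD of its log2 value, although the lowest single fold of Mt2 was in hydrogel CT (9.33, number 1762). There Mt1 was 7.93-fold to 10.8-fold and Mt2 9.55-fold to 13.9-fold higher in HA by protein-coding CPM. In hydrogel CT the folds were 8.32 to 16.8 for Mt1 and 9.33 to 18 for Mt2. With growth factors they were 17.1, 19.8 and 129 for Mt1 and 32.6, 20.7 and 247 for Mt2, in the order of the numbers 1685, 1687 and 1732. Number 1732 stood far above the other two, and Gfap did so as well, with a fold of 103 in that number against a lowest value of 4.26 in its group. In that FT library protein-coding genes held 79.9% of the counts, against 2.43% to 36.3% in the other 4 of its group, and the part of this in the ratio was not tested. In the fit over all 23 libraries, HA minus FT for Mt1 was 3.51 (SE 0.64) in SCI only, 4.17 (SE 0.68) in hydrogel CT and 6.48 (SE 0.68) with growth factors, and for Mt2 it was 3.80 (SE 0.66), 3.88 (SE 0.69) and 6.94 (SE 0.72), beside a median over 4675 genes of -0.01, 0.44 and 0.49. Mt1 stood above 99.5%, 92% and 99% of those genes, Mt2 above 99.6%, 91.7% and 99.1%, and Gfap above 99%, 91.4% and 97.2%. By this measure all 3 genes stood out least in hydrogel CT.

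**Figure D2:**
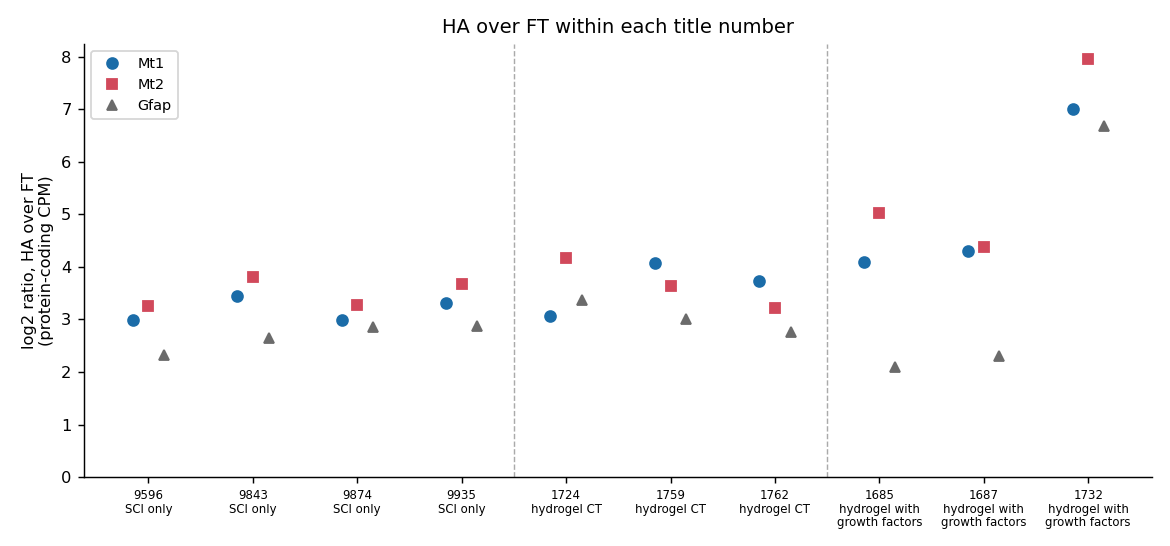
Log2 ratio of HA to FT protein-coding CPM for Mt1, Mt2 and Gfap, with 1 column per title number and dashed lines between the treatments. Mt1 ratios run from 2.99 to 3.44 in SCI only, from 3.06 to 4.07 in hydrogel CT and from 4.10 to 7.01 with growth factors, where the number 1732 gives the highest value for all 3 genes.

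In the HA fraction neither gene passed the test in any comparison of treatments. Mt1 CPM in HA libraries was 2681, 2412, 3077 and 3292 in SCI only, 1754, 3354 and 2020 in hydrogel CT, and 4777, 3542 and 5767 with growth factors. Means were 2866 ± 394 (SD, n = 4), 2376 ± 858 (n = 3) and 4695 ± 1115 (n = 3). On this scale the 3 libraries with growth factors lay above all others, while hydrogel CT overlapped with SCI only. Growth factors minus SCI only was 0.71 for Mt1 (SE 0.35, adjusted p = 0.25 by edgeR's quasi-likelihood test), where 29 of 6654 genes, 0.436%, were called. Growth factors minus hydrogel CT was 0.98 (SE 0.38, adjusted p = 0.277 by edgeR), with 0.0902% of genes called, and hydrogel CT minus SCI only was -0.27 (SE 0.35, adjusted p = 0.771), with 0.195% called.

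Mt2 followed Mt1 in the same fraction. Its CPM in HA libraries was 1981, 1840, 2081 and 2079 in SCI only, 1156, 2432 and 1286 in hydrogel CT, and 3712, 2087 and 4254 with growth factors, with means of 1995 ± 114 (SD, n = 4), 1624 ± 702 (n = 3) and 3351 ± 1128 (n = 3). The lowest library with growth factors stood just above the highest of SCI only and inside the hydrogel CT range. The differences were 0.75 (SE 0.37) for growth factors minus SCI only, 1.04 (SE 0.40) for growth factors minus hydrogel CT and -0.30 (SE 0.38) for hydrogel CT minus SCI only, with edgeR adjusted p of 0.261, 0.28 and 0.764. Unadjusted p for growth factors against hydrogel CT was 0.0179 for Mt1 and 0.0189 for Mt2 in edgeR, and 886 of the 6654 genes had an unadjusted p under 0.05.

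The size of the difference from SCI only rested on how the HA libraries were scaled. With protein-coding counts as the library size, growth factors minus SCI only was 0.10 for Mt1 and 0.11 for Mt2, and the groups overlapped. The authors' deposited table, made from their own edgeR fit, gives 0.77 with an FDR of 0.0321 for Mt1 and 0.81 with an FDR of 0.0631 for Mt2 in the same comparison. The summed level of the 17 astrocyte markers in HA libraries was 2427 to 3524 CPM in SCI only, 3306 to 6462 in hydrogel CT and 4123 to 5480 with growth factors, none of the markers being at 0 in any of the groups. Its part in the metallothionein values was not tested. Gfap itself differed by 0.31 (SE 0.38, adjusted p = 0.68 by edgeR) between growth factors and SCI only.

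**Figure D3:**
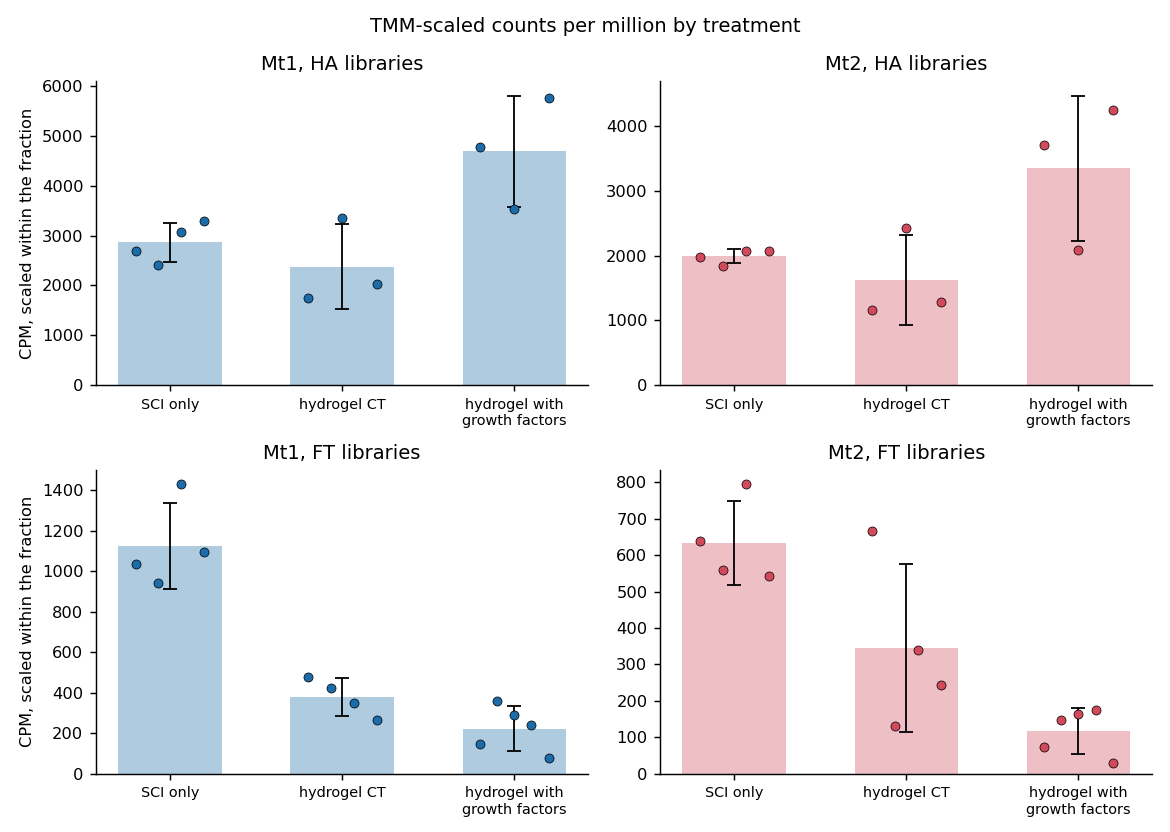
TMM-scaled CPM of Mt1 (left) and Mt2 (right) in HA libraries (top) and FT libraries (bottom), with bars at group means, error bars of 1 SD and 1 point per library. HA and FT were scaled separately, so levels can be compared within a row only, and the Mt1 mean with growth factors is the highest of the HA row at 4695 and the lowest of the FT row at 224.

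In the FT fraction both genes fell with growth factors relative to SCI only, and these were the only treatment comparisons that either passed. Mt1 CPM in FT libraries was 1035, 944, 1431 and 1094 in SCI only, 480, 426, 349 and 267 in hydrogel CT, and 148, 361, 289, 242 and 76.6 with growth factors, with means of 1126 ± 212 (SD, n = 4), 380 ± 93.0 (n = 4) and 224 ± 113 (n = 5). Mt2 CPM was 638, 559, 795 and 544 in SCI only, 667, 130, 340 and 244 in hydrogel CT, and 74.2, 148, 163, 175 and 29.6 with growth factors, with means of 634 ± 115 (SD, n = 4), 345 ± 231 (n = 4) and 118 ± 63.0 (n = 5). No library with growth factors overlapped with SCI only for either gene. Growth factors minus SCI only was -2.33 for Mt1 (SE 0.61, adjusted p = 0.0352) and -2.45 for Mt2 (SE 0.66, adjusted p = 0.0376) by edgeR's quasi-likelihood test. In that comparison 23 of 610 genes, 3.77%, were called, 21 of them lower (3.44%). The authors' deposited table gives -2.57 with an FDR of 0.000415 and -2.74 with an FDR of 0.000515.

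These calls were near the threshold. With protein-coding counts as library size the differences were -1.58 (adjusted p = 0.123 by edgeR) and -1.71 (adjusted p = 0.122), and with DESeq2 size factors -1.94 (adjusted p = 0.0762) and -2.04 (adjusted p = 0.0829). The Mt1 call was lost without any 1 of 6 libraries: growth factors 1687 (edgeR adjusted p = 0.0587) or 1732 (0.0546), and SCI only 9596 (0.0976), 9843 (0.0946), 9874 (0.147) or 9935 (0.0934). The Mt2 call was lost without any 1 of 8 libraries: growth factors 1645 (edgeR adjusted p = 0.0617), 1685 (0.0519), 1687 (0.0587) or 1732 (0.0688), and SCI only 9596 (0.0976), 9843 (0.0946), 9874 (0.147) or 9935 (0.0899). The difference stayed between -2.52 and -1.96 for Mt1 and between -2.65 and -2.02 for Mt2 over these 9 fits.

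Microglia and macrophage markers also differed in the same FT libraries. Of 13 microglia and macrophage markers 10 were in the table and summed to 7537 to 18161 CPM in SCI only, 187 to 3954 in hydrogel CT and 108 to 2306 with growth factors, with Tmem119 at 0 in the last group. Of the 6 of these that were tested between growth factors and SCI only, C1qa (-6.35, SE 0.94), a chain of complement C1q, and Lyz2 (-3.52, SE 0.96), a lysozyme gene of macrophages, fell, and Cx3cr1 (3.51, SE 0.95), the fractalkine receptor, rose. C1qb, another C1q chain, named after its values were seen, also fell (-2.77, SE 0.78). Astrocyte markers, 14 in the table, summed to 3398 to 4022 CPM in SCI only, 2529 to 12893 in hydrogel CT and 617 to 12258 with growth factors. Between growth factors and SCI only, none of the 11 astrocyte, 5 oligodendrocyte, 4 neuron and 1 oligodendrocyte progenitor markers tested was called. Over all 610 genes 3.77% were called. No endothelial, fibroblast and pericyte or ependymal marker was tested there. Gfap in the same comparison was -0.84 (SE 0.68, adjusted p = 0.53 by edgeR). The part of these cell type markers and of depth in the metallothionein fall was not tested, and in bulk tissue fewer cells of a type and less RNA per cell cannot be told apart.

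The hydrogel CT group lay between the others in the FT fraction, without a call. Hydrogel CT minus SCI only was -1.57 for Mt1 (SE 0.64, adjusted p = 0.188 by edgeR) and -0.92 for Mt2 (SE 0.67, adjusted p = 0.504), with 3.11% of genes called. All 4 hydrogel CT libraries lay below all 4 SCI only libraries for Mt1, and for Mt2 the library numbered 1683, at 667 CPM from 25 counts, lay within them. Growth factors minus hydrogel CT was -0.76 for Mt1 (SE 0.61, adjusted p = 0.956 by edgeR) and -1.53 for Mt2 (SE 0.67, adjusted p = 0.956). In that comparison edgeR called 0 of 610 genes, 23 had an unadjusted p under 0.05, and DESeq2 also called 0.

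Whether a treatment difference in HA differed from that in FT was asked directly with an interaction term over all 23 libraries. For growth factors against SCI only, the HA difference exceeded the FT difference by 2.97 for Mt1 (SE 0.84, adjusted p = 0.0916 by edgeR) and by 3.14 for Mt2 (SE 0.87, adjusted p = 0.0842), and neither passed. Of 4675 genes 14 were called, 0.299%, and by p the pair stood 43 and 38 of all genes. The Mt1 term passed without the FT library with growth factors numbered 1685 (3.36, adjusted p = 0.048 by edgeR). With protein-coding counts as library size the terms were 1.67 and 1.83. Mt2 gave 3.07 (SE 0.93, adjusted p = 0.121 by edgeR) and Mt1 2.31 (SE 0.89, adjusted p = 0.225) for growth factors against hydrogel CT. Hydrogel CT against SCI only gave 0.66 (SE 0.85) for Mt1 and 0.07 (SE 0.88) for Mt2, with edgeR adjusted p of 0.966 and 0.997. In the last pair of comparisons edgeR called 0 genes, 622 and 280 having an unadjusted p under 0.05.

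**Figure D4:**
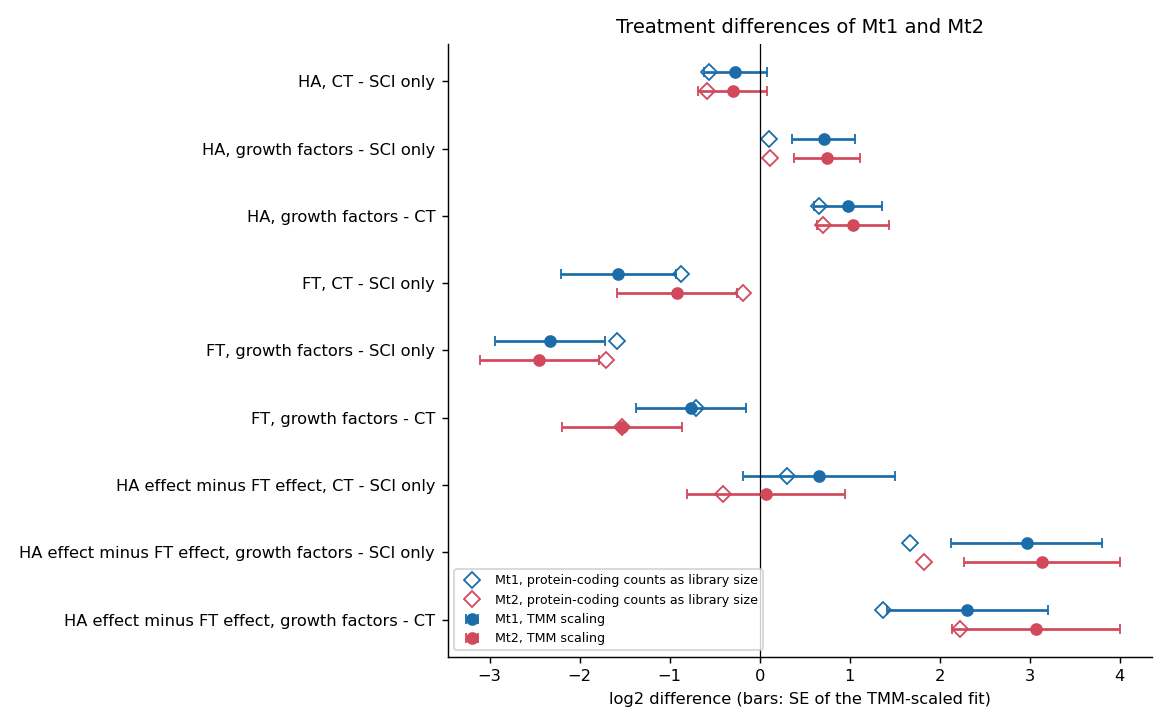
Log2 differences of Mt1 and Mt2 for 3 treatment comparisons in HA, the same 3 in FT and the HA difference minus the FT difference, with filled points and SE bars for the TMM-scaled edgeR fit and open diamonds for protein-coding counts as library size. HA differences with growth factors lie above 0 and FT differences below it, and the diamonds lie closer to 0 for most of them, as for Mt1 in HA against SCI only (0.10 beside 0.71).

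The ratio of Mt2 to Mt1 within a library does not depend on library scaling. Over HA libraries the log2 ratio of counts was -0.51 ± 0.12 (SD, n = 4) in SCI only, -0.57 ± 0.10 (n = 3) in hydrogel CT and -0.52 ± 0.21 (n = 3) with growth factors, so Mt2 counts were 0.70, 0.673 and 0.696 of Mt1 counts. These groups overlapped throughout. Over FT libraries the log2 ratio was -0.83 ± 0.13 (n = 4), -0.35 ± 0.93 (n = 4) and -0.94 ± 0.37 (n = 5). The hydrogel CT value spread from -1.69 to 0.46, with 18 to 116 counts of Mt1 in those libraries. HA exceeded FT by 0.32 in log2 ratio, higher in 8 of 10 numbers (exact two-sided sign-flip permutation test, p = 0.0996, adjusted p = 0.697 over 7 tests, smallest p possible 0.00195). The 6 treatment tests of the ratio, 3 in each fraction, gave adjusted p of 0.756 to 0.971 by exact permutation, where the 3 HA designs could not go below p = 0.0571, 0.0571 and 0.1.

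**Figure D5:**
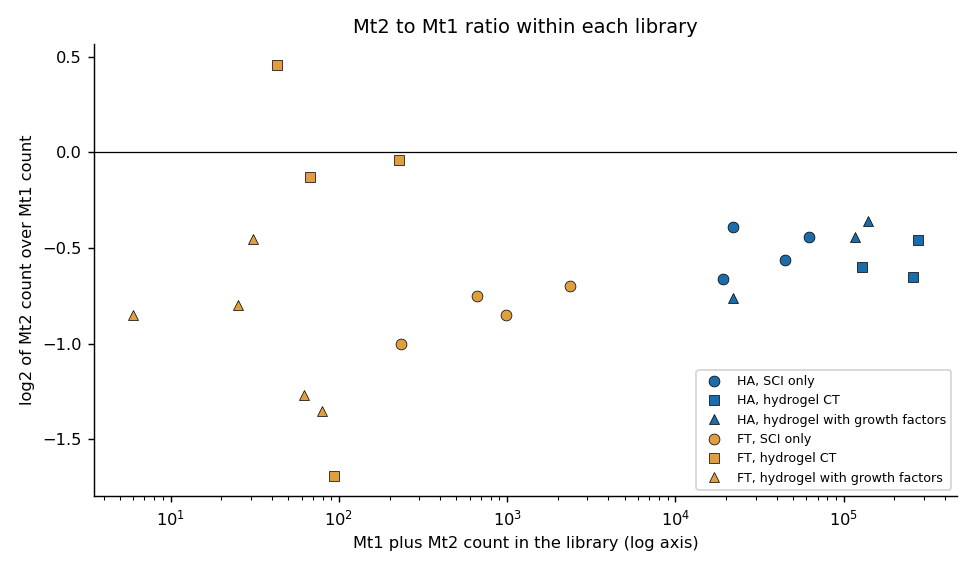
Log2 ratio of Mt2 to Mt1 counts in each library against the summed count of both genes on a log axis, with blue points for HA, orange for FT and shapes for treatments. The 10 HA points lie between -0.76 and -0.36, while the FT hydrogel points, with the fewest counts, spread from -1.69 to 0.46.

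Across libraries the pair moved together. Over the 10 HA libraries log2 CPM of Mt1 and Mt2 correlated with Pearson's r = 0.976 and Spearman's rho = 0.976 (permutation p = 2e-05 and 3e-05, adjusted over 3 relations 6e-05 and 9e-05), and r was 0.941 without the 2 libraries farthest from the median of Mt1. Within the 6 HA hydrogel libraries r was 0.987 and rho 0.943 (exact permutation p = 0.00417 and 0.0167, adjusted p = 0.00417 and 0.025), with r = 0.954 without the 2 farthest. The 4 SCI only libraries are too few for a value of their own. In the 9 FT hydrogel libraries r was 0.843 and rho 0.533 (permutation p = 0.00409 and 0.148, adjusted p = 0.00417 and 0.148), and r was 0.417 without the 2 farthest, so that relation rests on those libraries. Both values of a library share its scaling, and treatment groups were pooled in each of these correlations. The permutations do not account for either, and their part in the correlations was not tested.

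Relative to Gfap, the metallothionein count differed most among FT libraries with growth factors. The log2 ratio of summed Mt1 and Mt2 counts to Gfap counts, chosen after the values were seen and not tested, was 2.26 ± 0.27 (SD, n = 4), 2.23 ± 0.51 (n = 3) and 2.65 ± 0.83 (n = 3) in HA libraries of SCI only, hydrogel CT and growth factors. In FT libraries it was 1.62 ± 0.35 (n = 4), 2.06 ± 0.95 (n = 4) and 0.50 ± 1.37 (n = 5). The last group ranged from -1.34 to 2.27 and overlapped with both other FT groups.

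Mt3, the third family member in the tables, was far less abundant. Per transcript length it averaged 0.114% ± 0.0898 (SD, n = 4) of the protein-coding level in HA libraries of SCI only, 0.0389% ± 0.0225 (n = 3) in hydrogel CT and 0.0985% ± 0.0394 (n = 3) with growth factors, where Mt1 stood at 10.4% or more in each library. Mt3 in HA did not pass in any treatment comparison, with differences of -1.38 (SE 0.78) for hydrogel CT minus SCI only, 0.42 (SE 0.74) for growth factors minus SCI only and 1.8 (SE 0.82) for growth factors minus hydrogel CT. In FT libraries it had 2 to 12 counts in SCI only, 1 count in 1 of 4 libraries of hydrogel CT and 0 in all 5 with growth factors. A count of 0 allows up to 4.03 CPM in the library numbered 1732 and 24.6 to 111 CPM in the other 4. SCI only libraries stood at 4.53 to 34.9 CPM, the lowest, numbered 9843, from 2 counts. In protein-coding CPM that library stood at 21.3, with a Wilson interval of 5.85 to 77.8. On the same scale the Wilson upper limit of the library numbered 1732 was 33.2. Mt3 is therefore not shown to be lower in that library than in every SCI only library. Mt3 did not pass the filter on low counts in FT and was not tested there. In the authors' deposited table its log2 fold change in FT was -4.86 (FDR 0.022) for growth factors against SCI only and -2.57 (FDR 0.198) for hydrogel CT against SCI only; a fitted fold against a group at 0 depends on the prior count and is no bound. Mt4 was not among the gene symbols with counts in either fraction, so it was not analysed.

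Genes that move zinc were sparse beside the metallothioneins. Of 23 zinc transporters and regulators listed, 12 were tested in HA, and MTF1's gene was not among them. None of the 12 was called in any of the 3 HA comparisons, where 0.0902% to 0.436% of all genes were, and their median difference was 0.58 for hydrogel CT minus SCI only, 0.22 for growth factors minus SCI only and -0.53 for growth factors minus hydrogel CT, beside medians of 0.27, 0.12 and -0.14 over all 6654 genes. Slc30a1, the zinc exporter of the plasma membrane, had 1.03 to 6.56 CPM in HA libraries of SCI only, 2.55 to 7.22 in hydrogel CT and 0 to 1.12 with growth factors, and its difference of -2.11 between growth factors and SCI only (SE 1.32, adjusted p = 0.376 by edgeR) did not pass. Slc39a1, a zinc importer, had 10.5 to 21.6, 2.12 to 17.7 and 11.5 to 22.0 CPM. Slc39a14, an importer of zinc and iron, reached no more than 5.48 CPM in any HA library. Between fractions 4 of the 23 were tested and none called, beside 20.6% of all genes.

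Of 8 copper and iron genes tested between fractions, 3 were lower in HA and none higher, beside 7.37% lower and 13.2% higher over all genes: Fth1 (-4.05, SE 0.35) and Ftl1 (-3.04, SE 0.59), the chains of the iron store ferritin, and Slc31a2 (-2.43, SE 0.77), a copper transporter. The other 5 ran from -0.98 (SE 0.74) for the iron transporter gene Slc11a2 to 1.40 (SE 0.62) for Ireb2, an iron regulatory protein, and the median of the 8 was -0.52 beside 0.28 over all genes. None of 11 tested in HA was called between treatments, where 0.0902% to 0.436% of all genes were. Of 16 genes of oxidative stress tested between fractions, 3 were higher in HA and none lower, a share near the 13.2% higher over all genes: Prdx6 (2.80, SE 0.35), a peroxiredoxin, and the glutathione transferases Gsta4 (2.64, SE 0.59) and Gstm1 (1.71, SE 0.62). Gpx1, a glutathione peroxidase, fell in FT with growth factors (-2.79, SE 0.65, adjusted p = 0.0156 by edgeR) and with hydrogel CT (-3.31, SE 0.73, adjusted p = 0.0127), each against SCI only, as 1 of 6 genes of that list tested there, beside 3.77% and 3.11% of all 610 genes.

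Glucocorticoids and IL-6 family cytokines are known inducers of metallothionein genes. Of the glucocorticoid list 1 of 4 was higher in HA than in FT, Cdkn1a (2.26, SE 0.67), a cell cycle inhibitor. Of the list of IL-6 family and STAT3 response genes 2 of 7 were higher in HA, Serpina3n (2.85, SE 0.47), a protease inhibitor of reactive astrocytes, and the transcription factor gene Cebpd (2.75, SE 0.84). Over all genes 13.2% were higher in HA, and with 4 and 7 genes tested these counts are read no further. None of the 6 and 11 members tested in HA was called between treatments, where the share over all genes was 0.0902% to 0.436%. The IL-6 and STAT3 list had medians of -1.20, 0.43 and 1.30 for hydrogel CT minus SCI only, growth factors minus SCI only and growth factors minus hydrogel CT, beside all-gene medians of 0.27, 0.12 and -0.14.

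Over all 23 libraries, scaled together, the genes whose log2 CPM was most like both metallothioneins were Prdx6 (r = 0.956 with Mt1 and 0.951 with Mt2), S100a6 (0.930 and 0.922), Mt3 (0.929 and 0.915), Gfap (0.929 and 0.913) and Serpine2 (0.900 and 0.910), out of 4675 genes. S100a6 encodes a calcium-binding protein and Serpine2 a secreted protease inhibitor. Mt1 and Mt2 correlated at 0.988 with each other. Libraries of a fraction share its scale and depth in these correlations, which are a description. Once each HA group's mean was removed, the order changed: among 6654 genes in the 10 HA libraries the most alike were Smad7 (0.928 and 0.904), an inhibitor of TGF-beta signalling, Ogfr (0.898 and 0.929), Cadm4 (0.913 and 0.898), 1500015O10Rik (0.904 and 0.896) and Spg21 (0.891 and 0.889). Mt1 and Mt2 still correlated at 0.947 there, whereas Gfap stood 4165 in that order, with 0.142 and -0.156.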

How the data were processed

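RNA was sequenced from 23 mouse spinal cord libraries, 10 HA and 13 FT, from 5 ng RNA each with NuGEN Ovation cDNA and paired-end libraries, per the labels' protocols. The authors deposited raw counts per Ensembl transcript, with their edgeR log2 fold changes, p-values and FDRs, in 1 table per fraction. CASAVA 1.8.2, edgeR and mm10 are named in the submitters' processing notes, and for the aligner and counter no name is given in these sources. The tables list 10389 and 5001 transcripts, with no row total under 10 and 11 counts. 45 other per-sample columns were not used. Rows without a symbol, 0.00272% to 0.319% of counts, stayed out of the fits.

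Counts were summed per symbol. Treatments were compared within each fraction in edgeR 4.0.16 (R 4.3.3), with filterByExpr (minimum count 10), TMM scaling, the quasi-likelihood test and Benjamini-Hochberg adjustment over all genes tested, called at 0.05. The interaction was fitted over 23 libraries, and HA against FT over 10 title numbers, on genes listed in both tables. SE was the log2 difference over the square root of F. Log2 CPM used a prior count of 2. Levels per length used GENCODE M21 transcript lengths, which matched 98.3% and 99.1% of rows, and left out Lars2, as did the protein-coding totals; what the reads counted to Lars2 and Yam1 are was not tested. The Mt2 to Mt1 ratio added 0.5 to each count and was tested by exact permutation, and correlations of 10 libraries used 100000 permutations (scipy 1.17.1). On simulated counts of the growth factor against SCI only comparison, edgeR recovered 81% of log2 changes of 2 in HA (6601 genes), 97% in FT (415 genes) and 24% in the interaction (4663 genes). At a log2 change of 3 these were 99%, 100% and 63%. The simulation gave every gene the same spread between libraries and changed only genes at or above the median level. It changed 100 genes at each size in each comparison, a far larger part of the 415 FT genes than of the 6601 HA genes. Adjustment is more lenient where a larger part is changed, so the recovered shares cannot be compared between fractions. These shares therefore do not give the power for genes that are lower or vary more, and a missing call is not shown to be an absent change.

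The genes and the 14 lists were chosen with earlier results of these data known. Named beside Mt1 and Mt2 are family and metal genes, Gfap, up to 3 called genes with the largest difference per list, and the 5 genes most alike by correlation. Alternatives for pairing were limma 3.58.1 with the title number as random block for the interaction, and edgeR with a term per title number for HA against FT. Other alternatives were DESeq2 1.42.0 (test or size factors), protein-coding library sizes or genes, other filters, 2-group fits and leaving out each library. Same-numbered libraries were taken as pairs because the design text says that both fractions came from the same tissue, although their deviations from group means correlated at 0.0039 to 0.0876, with 0 of 10 above 0.1.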

Additional observations from a re-analysis of the deposited data

How the results depend on the processing

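Growth factors minus SCI only in FT kept its direction under all 7 alternatives and all 9 omissions for both genes. None of these fits used plain total counts as the library size. Yam1 took 89.7% to 93.1% of those totals in FT libraries of SCI only and 13.8% to 88.7% with growth factors. The direction is therefore shown only for counts scaled by TMM, DESeq2 size factors or protein-coding counts. For Mt1 and Mt2 it missed the threshold with DESeq2 size factors (-1.94 and -2.04, adjusted p = 0.0762 and 0.0829 by edgeR), protein-coding counts as library size (-1.58 and -1.71, 0.123 and 0.122) and protein-coding genes only (-2.06 and -2.17, 0.0507 and 0.0571), and passed with DESeq2's test (adjusted p = 0.0017 and 0.0109). Leaving out 1 library gave -2.52 to -1.96 for Mt1, past the threshold in 3 of 9, and -2.65 to -2.02 for Mt2, past it in 1 of 9. The interaction of growth factors against SCI only ran from 2.50 to 3.36 for Mt1 over 16 omissions, past it in 1. The Mt2 interaction of hydrogel CT against SCI only changed sign: -0.43 with DESeq2 size factors, -0.41 with protein-coding library size, -0.40 with DESeq2's test, -0.04 with protein-coding genes only, and -0.40 to 0.30 over omissions. The log2 ratio of Mt2 to Mt1 between HA treatments also changed sign, at -0.09 to 0.11 for growth factors minus SCI only and -0.03 to 0.17 for growth factors minus hydrogel CT. The cause was not tested.

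With the title number as random block the interactions of growth factors were 3.20 and 3.42 against SCI only (limma adjusted p = 0.0562 and 0.063) and 2.61 and 3.31 against hydrogel CT (0.219 and 0.139). Those of hydrogel CT against SCI only were 0.59 and 0.11 (limma adjusted p = 0.997 and 0.997), so pairing changed no call. HA minus FT, fitted in edgeR with a term per title number, was 4.38 and 4.65. Protein-coding library size moved the median of all genes by -0.63 in HA and 0.63 in FT for growth factors minus SCI only and by -1.03 in their interaction.

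Counts of called genes moved more than the 2 genes did. For hydrogel CT minus SCI only, growth factors minus SCI only and growth factors minus hydrogel CT, HA had 13, 29 and 6 calls in edgeR and 232, 710 and 271 in DESeq2, with 4 to 232, 5 to 710 and 0 to 271 over all alternatives and 3 to 15, 2 to 127 and 0 to 13 over omissions. FT had 19 and 23 calls against SCI only in edgeR and 57 and 79 in DESeq2, with 6 to 209 and 6 to 174 over alternatives and 4 to 17 and 9 to 23 over omissions, and 0 in each for growth factors minus hydrogel CT. Depth limits the FT hydrogel libraries, with 2 to 116 counts of either gene.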
